A study of Mus musculus with 12 samples.

Results

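MHC class II molecules were followed in whole mouse kidney through 10 genes of their assembly and control, of which 8 had a probe set of their own and are described here. The genes were chosen by name, as those annotated alone to a probe set of the array, and the probe set with the highest mean stood for each gene. H2-DMb1 and H2-DMb2, both beta chains of the peptide exchange factor, share 1 probe set and so have no value of their own. The 8 measured genes are Cd74, H2-Aa, H2-Ab1, H2-Eb1, H2-DMa, H2-Oa, H2-Ob and Ciita, out of 19936 genes with a probe set of their own. Each lay above the 25th percentile of the array on all 12 arrays, so all 8 were among the 16480 genes tested.

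The arrays came from 4 groups of 3 mice, 1 array per mouse, killed at 6 months of age. FVB mice had an intact D6 gene (D6+/+) and no diabetes, and D6 mice lacked the gene (D6-/-) and had no diabetes either. OVE mice carried the diabetes and an intact gene, and OVE-D6 mice carried the diabetes and lacked the gene. All groups were on the FVB background: the knockout allele came from C57BL/6 mice, was bred into FVB for at least 10 generations, and was then combined with the OVE line. OVE diabetes is known as a beta-cell disease, caused by a calmodulin transgene expressed in the insulin-producing cells, so the kidney cells themselves are not its target. D6, now called Ackr2, is a receptor that clears inflammatory CC chemokines without signalling. Values are log2 probe-set levels, and a difference of 1 is a doubling. Since levels of different probe sets are not on 1 scale, each gene is compared with itself across arrays.

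MHC class II molecules display peptides from engulfed or internalised proteins to CD4 T cells. They are made by dendritic cells, macrophages and B cells, and interferon gamma can induce them in other cells, the tubular epithelium of an inflamed kidney among them. The alpha and beta chains pair around the invariant chain Cd74, whose last fragment is exchanged for a peptide by H2-DM, which H2-O restrains. Ciita, the class II transactivator, is recruited to the promoters by factors bound at an X box and a Y box and sets the rate of transcription of the other genes. FVB mice carry the q haplotype of the H2 locus, which is known to lack I-E at the cell surface. A transcript of H2-Eb1, the I-E beta chain gene, therefore need not mean I-E protein there. Class II genes are among the most variable of the genome, and how well the probes match the FVB alleles was not tested.

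Promoter windows are shown for measured members whose class II boxes can be seen in the letters, the first pair from classical chains and the second from the H2-O chains. They are RefSeq sequences of the C57BL/6J reference (GRCm38.p6), 250 bases before to 50 after the start, 5′ to 3′ on the gene's strand. Capitals mark the letters GATTGG, the core of the Y box that NF-Y binds, and the letters GCAAC before it, where the RFX complex binds the X box.
H2-Aa, chr17:34287774-34288073, minus strand: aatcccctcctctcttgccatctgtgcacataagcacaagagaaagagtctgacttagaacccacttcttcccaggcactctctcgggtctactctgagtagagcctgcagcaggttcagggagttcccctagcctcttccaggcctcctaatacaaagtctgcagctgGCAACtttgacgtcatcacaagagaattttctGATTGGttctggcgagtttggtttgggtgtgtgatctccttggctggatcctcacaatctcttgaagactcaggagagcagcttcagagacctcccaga
H2-Eb1, chr17:34305617-34305916, plus strand: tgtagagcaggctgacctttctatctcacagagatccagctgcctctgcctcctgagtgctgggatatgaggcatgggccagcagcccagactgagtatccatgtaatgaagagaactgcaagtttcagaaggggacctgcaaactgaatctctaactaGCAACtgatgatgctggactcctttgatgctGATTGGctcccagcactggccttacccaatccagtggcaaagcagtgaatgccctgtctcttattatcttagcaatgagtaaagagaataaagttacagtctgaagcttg
H2-Ob, chr17:34238655-34238954, plus strand: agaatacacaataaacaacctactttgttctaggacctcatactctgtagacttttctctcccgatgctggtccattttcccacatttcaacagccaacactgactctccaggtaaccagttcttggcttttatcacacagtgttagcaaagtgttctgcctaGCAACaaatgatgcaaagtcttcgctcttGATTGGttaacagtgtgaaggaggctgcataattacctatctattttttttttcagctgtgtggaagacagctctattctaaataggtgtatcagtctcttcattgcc
H2-Oa, chr17:34092129-34092428, plus strand: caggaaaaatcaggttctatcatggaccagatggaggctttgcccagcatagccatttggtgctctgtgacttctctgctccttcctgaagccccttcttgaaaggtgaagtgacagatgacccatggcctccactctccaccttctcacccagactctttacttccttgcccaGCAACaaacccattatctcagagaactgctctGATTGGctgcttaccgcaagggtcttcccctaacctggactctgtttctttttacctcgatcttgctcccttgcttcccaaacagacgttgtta

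The search was for AAC followed, after 20 to 32 other letters, by GATTGG, on both strands, with the motif chosen with these promoters in view. It was found in 6 of the 7 members whose windows were searched, the 4 shown together with H2-DMb1 and H2-DMb2, and in 2.48% of 32841 windows of the same length in the mouse. In the first match of each of the 6 members the letters between the parts numbered 24 to 27, and GATTGG began 44 to 91 bases before the start. H2-Oa held a further match with 23 letters between, ending at the same GATTGG. Neither of the 2 windows of H2-DMa held the pair. GATTGG alone, which is part of the longer motif, was in 16.1% of all windows. H2-Ab1 and Ciita had no entry in the promoter table. The 4 windows carry the same pair of letters. The genes behind them differed in how far their levels moved between arrays, as the values below show, with H2-Oa close to background. Whether the letters bear on those levels was not tested.

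The arrays were alike in overall level, with medians between 6.84 and 6.93. The first principal component of all tested genes (35.9% of the variance) placed OVE replicate 1 at 27.0, replicate 2 at 29.4 and replicate 3 at 6.95, with the other 9 arrays from -15.1 to 5.17. OVE replicate 3 therefore stands apart from its group, and counts that involve OVE are given with it and, as an alternative chosen after seeing the data for the pathway and marker lists, without it. The probe set of Ackr2 lay between 6.74 and 7.04 on every array, and the part of the gene deleted was not used here, so it does not check the genotype labels. Kidney markers were high throughout, the 6 measured averaging 12.36 to 12.75 on each array, with Lrp2 and Slc12a3 lower in OVE than in FVB. None of 4 fat markers passed in any comparison, nor had an unadjusted p under 0.05. Their mean level varied widely between arrays of a group, from 5.58 to 7.35 in FVB and from 5.70 to 7.12 in OVE-D6. It ran from 5.99 to 6.40 in D6 and from 6.24 to 6.85 in OVE. The part of fat in the class II values was not tested.

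The invariant chain gene Cd74 was highest in diabetic mice with intact D6. It read 12.01, 11.94 and 10.26 on OVE replicates 1, 2 and 3, against 10.34, 9.61 and 9.48 in FVB. In D6 mice it read 11.36, 10.78 and 10.08, and in OVE-D6 mice 10.04, 10.14 and 10.14. OVE replicates 1 and 2 are the highest arrays of all, OVE replicate 3 falls under the first FVB array, and the diabetic knockouts are nearly level with each other.

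H2-Aa and H2-Ab1 encode the alpha and beta chains of I-A, the class II molecule that FVB mice do display. H2-Aa read 9.48, 9.16 and 8.18 in OVE and 8.08, 7.90 and 7.73 in FVB, so every OVE array lay above every FVB array. It read 8.61, 8.74 and 8.20 in D6 and 7.91, 8.28 and 8.25 in OVE-D6, which places D6 arrays above all FVB arrays as well. H2-Ab1 read 9.93, 9.67 and 8.0 in OVE, 8.39, 7.68 and 7.76 in FVB, 9.32, 8.63 and 7.98 in D6 and 7.95, 8.25 and 8.03 in OVE-D6. Here too OVE replicates 1 and 2 lead, followed by D6 replicate 1, and OVE replicate 3 sits among the non-diabetic wild types.

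H2-Eb1, the I-E beta chain, was highest on a single diabetic array. Its OVE values were 8.06, 7.23 and 6.80, its FVB values 6.91, 6.80 and 6.81, its D6 values 7.11, 7.37 and 7.01, and its OVE-D6 values 6.95, 6.97 and 6.89. The D6 arrays lay above all FVB and all OVE-D6 arrays, while the OVE arrays spanned the range of the other groups.

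H2-DMa, the alpha chain of the exchange factor, followed the I-A chains. It read 9.28, 8.79 and 7.61 in OVE, 7.69, 7.37 and 7.63 in FVB, 8.48, 8.41 and 7.91 in D6 and 7.73, 7.69 and 8.04 in OVE-D6. All D6 arrays were above all FVB arrays, and OVE replicate 3 was again among the FVB values.

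Ciita, the transactivator, read 8.69, 7.56 and 7.08 in OVE, 7.11, 6.73 and 6.84 in FVB, 7.32, 7.34 and 6.89 in D6 and 6.83, 7.28 and 6.84 in OVE-D6. OVE replicate 1 stands alone, and the other 11 arrays lie between 6.73 and 7.56.

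The H2-O chains, known mainly from B cells and dendritic cell subsets, varied little. H2-Oa lay between 5.41 and 5.98 on the 12 arrays and exceeded 5.93 on only 2 of them, where 5.93 is the 95th percentile of the mean levels of 1027 olfactory receptor genes, taken as a background since such receptors belong to the nose. All 4 group means of H2-Oa were under that level, so its differences are close to background. H2-Ob ranged from 6.30 to 7.05, with OVE replicate 1 the highest and OVE-D6 replicate 3 the lowest.

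**Figure D1:**
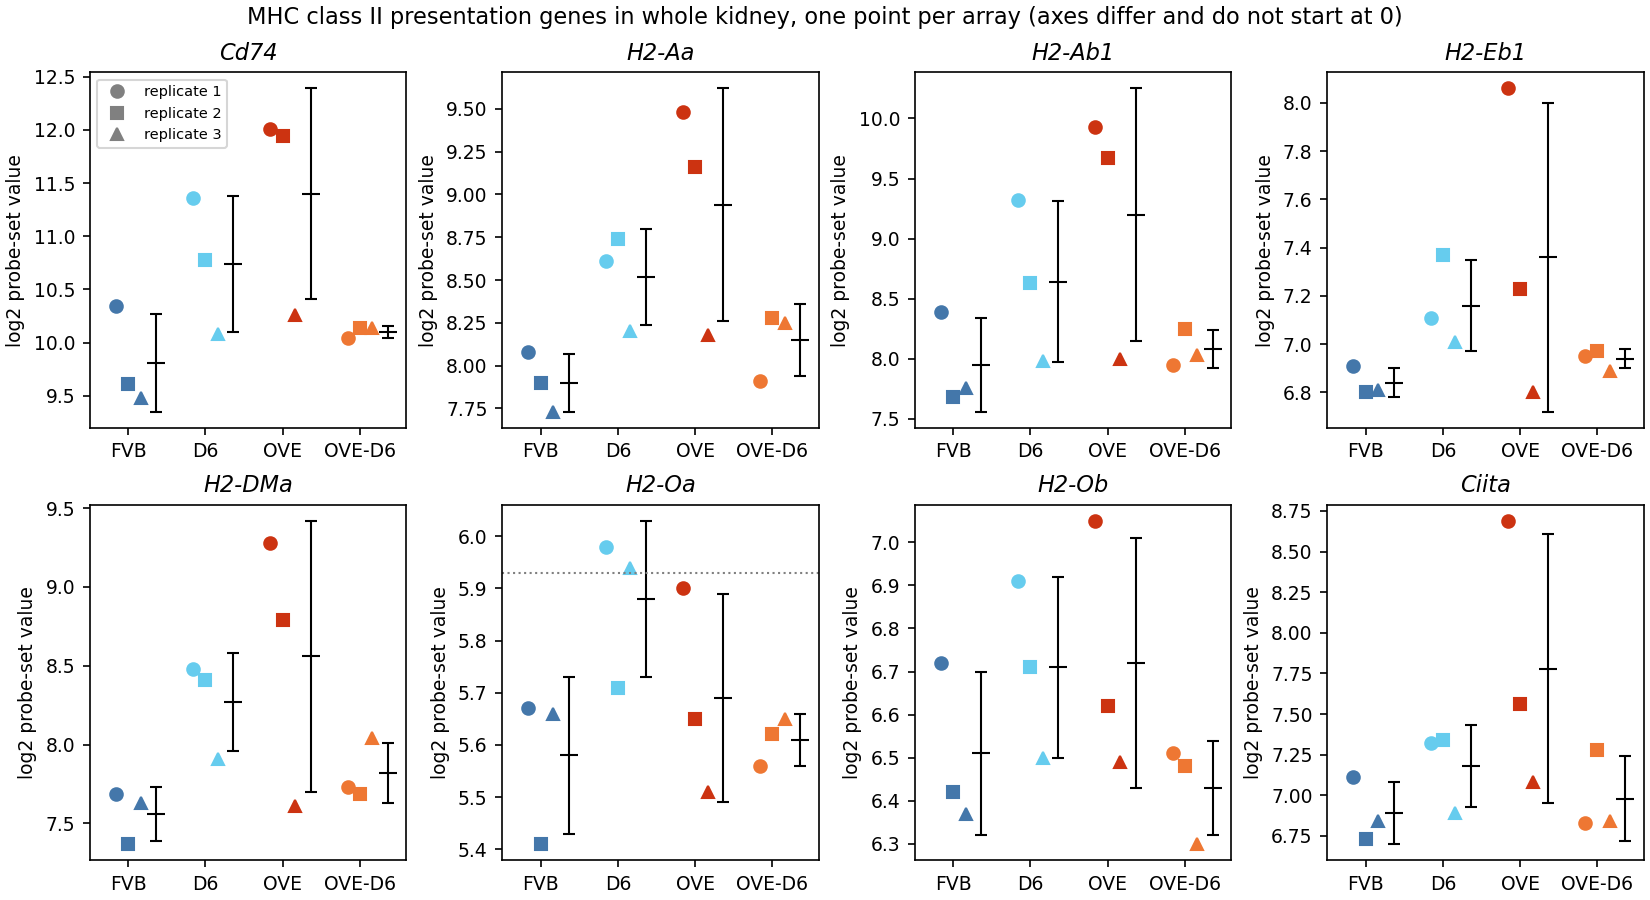
Log2 probe-set values of the 8 measured genes on each array by group, with symbols for replicates 1 to 3 and a bar for the mean ± SD of 3 arrays. The dotted line in the H2-Oa panel is the olfactory receptor level of 5.93. OVE replicates 1 and 2 are the highest Cd74 arrays at 12.01 and 11.94, and OVE replicate 3 is at 10.26.

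The order of the group means was the same in 6 genes, Cd74, H2-Aa, H2-Ab1, H2-Eb1, H2-DMa and Ciita, with OVE highest, then D6, then OVE-D6, and FVB lowest. For Cd74 the means were 11.40 ± 0.99 in OVE, 10.74 ± 0.64 in D6, 10.10 ± 0.06 in OVE-D6 and 9.81 ± 0.46 in FVB (SD, n = 3). Neighbours in this order overlapped in every case except H2-Eb1, where D6 (7.16 ± 0.19) lay wholly above OVE-D6 (6.94 ± 0.04). H2-Oa had its highest mean in D6 (5.88) and H2-Ob had nearly equal means in OVE (6.72) and D6 (6.71), with OVE-D6 lowest for H2-Ob (6.43). The spread within OVE was wide: the median SD of the 8 genes was 0.753 there, against 0.268 in D6, 0.181 in FVB and 0.136 in OVE-D6. Over all tested genes the median SD was 0.123 in OVE and 0.096 to 0.105 elsewhere.

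Diabetes with intact D6 was compared first, OVE against FVB, with limma over all tested genes and an adjusted p of 0.05 (Benjamini-Hochberg) as the threshold. Cd74 rose 3.01-fold (log2 1.59 ± 0.42, SE, n = 3 per group, limma adjusted p = 0.0409), and H2-Aa rose 2.05-fold (1.04 ± 0.26, adjusted p = 0.0348). Those 2 of 8 passed, both as higher, where 4.90% of all tested genes were called higher. H2-Ab1 (1.25 ± 0.43, adjusted p = 0.10), H2-DMa (1.0 ± 0.32, adjusted p = 0.0753), Ciita (0.88 ± 0.31, adjusted p = 0.102) and H2-Eb1 (0.52 ± 0.23, adjusted p = 0.185) did not pass. H2-Ob differed by 0.22 ± 0.15 and H2-Oa by 0.11 ± 0.11, and neither passed. All 8 differences were above 0, as were 46.3% of all differences, and 6 had an unadjusted p under 0.05, as did 12.9% of all genes in that direction. Their median was 0.94 against -0.018 over all genes tested, and 1.23% of all genes exceeded 0.94. In H2-Aa alone did the groups not overlap, where 13.6% of all genes had every OVE array above every FVB array.

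Both calls depended on single arrays. Without 1 array, Cd74 was no longer called in 8 of 12 fits (FVB replicate 2 or 3, D6 replicate 2, OVE replicate 1 or 2, or any OVE-D6 array left out; limma adjusted p = 0.0542 to 0.147). H2-Aa was lost in 5 (any FVB array, or OVE replicate 1 or 2; adjusted p = 0.0604 to 0.123), and both were lost in a fit of the 2 groups alone (adjusted p = 0.103 for Cd74 and 0.102 for H2-Aa) and with a trend and robust variance (0.0946 and 0.0599). Without OVE replicate 3, 6 of 8 rose, where 7.57% of all genes were called higher (1901 called in all). Cd74 rose by 2.16 ± 0.31, H2-Ab1 by 1.85 ± 0.31, H2-DMa by 1.47 ± 0.19, H2-Aa by 1.42 ± 0.17, Ciita by 1.24 ± 0.27 and H2-Eb1 by 0.81 ± 0.19 (limma adjusted p at most 0.0173), and the median became 1.33.

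**Figure D2:**
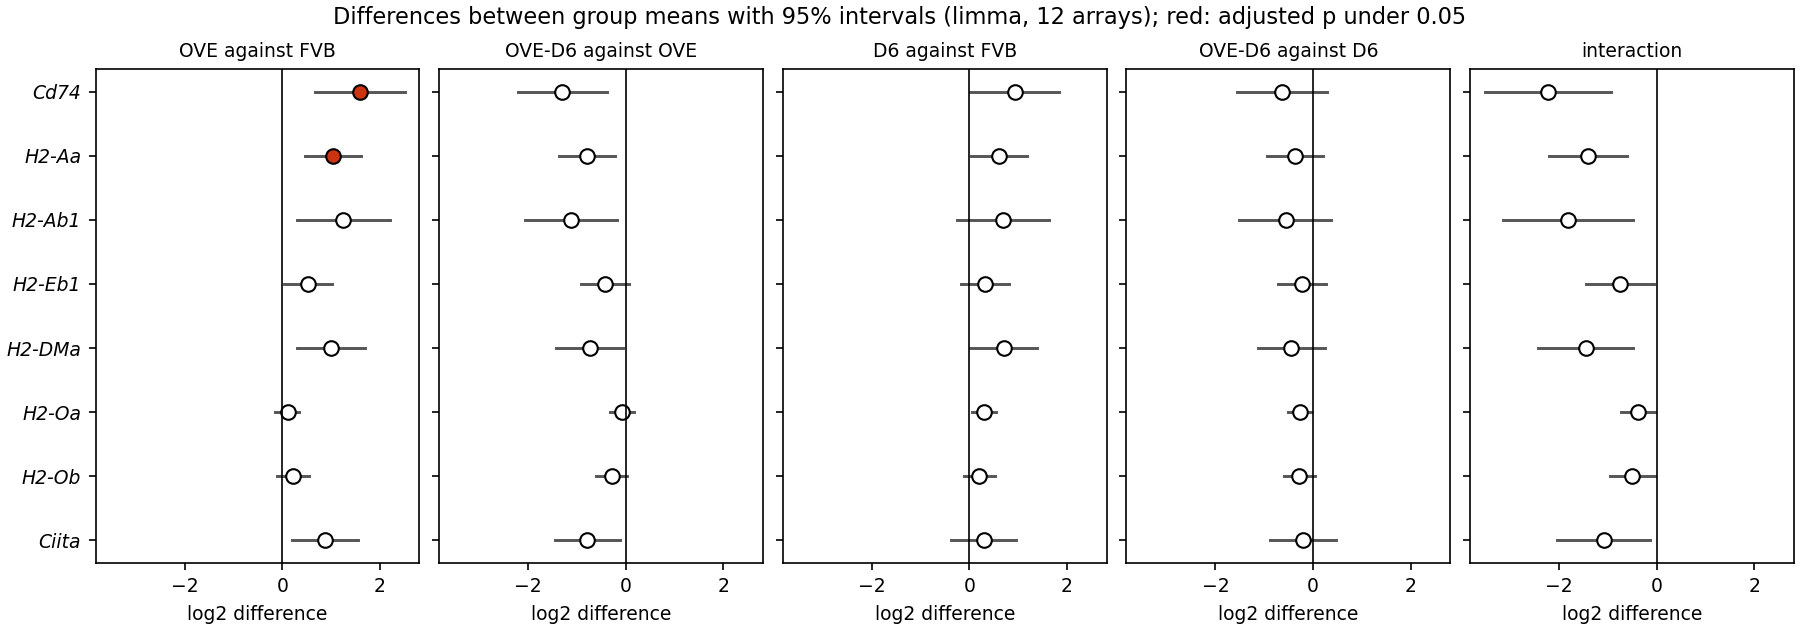
Differences between group means on the log2 scale for the 8 genes in each of the 5 comparisons, with 95% intervals from limma; the last panel is the OVE-D6 minus D6 difference less the OVE minus FVB difference. Filled red points passed an adjusted p of 0.05, which holds only for Cd74 (1.59) and H2-Aa (1.04) in OVE against FVB.

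Loss of D6 in the diabetic kidney was read from OVE-D6 against OVE, which shares the OVE arrays with the comparison above. No class II gene passed the limma threshold, where 0.182% of all genes were called lower, and all 8 estimates were below 0, as were 47.3% of all differences. Their median was -0.77 against 0.01 over all genes, and 1.01% of all genes lay below -0.77. Cd74 differed by -1.30 ± 0.42 (SE, n = 3 per group, limma adjusted p = 0.196), H2-Ab1 by -1.12 ± 0.43, H2-Aa by -0.79 ± 0.26, Ciita by -0.79 ± 0.31 and H2-DMa by -0.74 ± 0.32. These 5 had an unadjusted p under 0.05, as did 8.13% of all genes in that direction. H2-Eb1 differed by -0.43 ± 0.23, H2-Ob by -0.29 ± 0.15 and H2-Oa by -0.08 ± 0.11. Only for Cd74 did every OVE-D6 array lie below every OVE array, as in 8.24% of all genes.

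Without OVE replicate 3 the same comparison called 5 of the 8 as lower: Cd74 (-1.87 ± 0.31, limma adjusted p = 0.00528), H2-Ab1 (-1.72 ± 0.31), H2-DMa (-1.22 ± 0.19), H2-Aa (-1.17 ± 0.17) and Ciita (-1.14 ± 0.27). That fit called 668 genes in all, 3.32% of those tested as lower, against 38 genes with every array. No class II gene passed in the other 11 fits with an array left out (limma adjusted p = 0.183 to 0.613 for these 5). Without OVE replicate 1 the median was -0.36, and H2-Oa turned to 0.03 ± 0.11.

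Without diabetes the mean of the D6 knockouts was above that of the wild types for all 8 genes, as for 51.4% of all genes. None passed (limma adjusted p = 1 for each), where 0% of all genes were called higher. Cd74 differed by 0.93 ± 0.42, H2-DMa by 0.70 ± 0.32, H2-Ab1 by 0.69 ± 0.43 and H2-Aa by 0.61 ± 0.26 (SE, n = 3 per group). H2-Eb1 differed by 0.32 ± 0.23, H2-Oa and Ciita by 0.29 and H2-Ob by 0.20, and the median was 0.47 against 0.004 over all genes, with 0.431% of all genes above 0.47. Every D6 array lay above every FVB array for 4 of the 8, H2-Aa, H2-Eb1, H2-DMa and H2-Oa, as in 5.59% of all genes. The unadjusted p was under 0.05 for Cd74, H2-Aa, H2-DMa and H2-Oa, where 2.15% of all genes were higher at that level. For Cd74, D6 replicates 1 and 2 read 11.36 and 10.78, and the third array, at 10.08, lay under the first FVB array at 10.34.

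Diabetes within the knockouts, OVE-D6 against D6, gave estimates below 0 in all 8 genes, as in 52.4% of all genes. None passed limma, where 0.103% of all genes were called lower, and the median was -0.32 against -0.007 over all genes, with 2.38% of all genes below -0.32. Cd74 differed by -0.64 ± 0.42 (95% interval -1.55 to 0.28), H2-Ab1 by -0.56 ± 0.43, H2-DMa by -0.45 ± 0.32 and H2-Aa by -0.37 ± 0.26. H2-Ob differed by -0.28, H2-Oa by -0.27, H2-Eb1 by -0.23 and Ciita by -0.20. H2-Eb1 and H2-Oa had every OVE-D6 array below every D6 array, as in 8.68% of all genes, and H2-Oa alone had an unadjusted p under 0.05, as did 5.20% of all genes in that direction. The estimate of 1.59 for Cd74 between OVE and FVB, with a 95% interval of 0.68 to 2.51, lies outside its interval here. Neither interval is adjusted for the number of genes, and the difference between these comparisons is tested only by the interaction below.

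Whether the diabetes effect differed by genotype was tested as the interaction, the OVE-D6 minus D6 difference less the OVE minus FVB difference. Cd74 gave -2.23 ± 0.60 (SE, limma unadjusted p = 0.00269, adjusted p = 0.274), H2-Ab1 -1.82 ± 0.62, H2-DMa -1.45 ± 0.45, H2-Aa -1.40 ± 0.37 and Ciita -1.08 ± 0.44. H2-Eb1 gave -0.75 ± 0.32, H2-Ob -0.50 ± 0.21 and H2-Oa -0.37 ± 0.16. All 8 had an unadjusted p under 0.05, as did 6.29% of all genes in that direction, and no gene of 16480 (0%) passed after adjustment by limma. The values lay below 0 for all 8, as for 48.4% of all genes, and their median was -1.24 against 0.006 over all genes, with 0.534% of all genes below -1.24. Without OVE replicate 3, Cd74, H2-Aa, H2-Ab1 and H2-DMa passed (-2.80, -1.78, -2.42 and -1.92, limma adjusted p = 0.00188 to 0.00994), among 377 genes called, 2.14% of those tested as lower. No class II gene passed in the other 11 fits with an array left out (limma adjusted p = 0.234 to 0.636 for these 4). The 8 genes are measured in the same mice and are not independent.

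Within the OVE group all 8 class II genes ranked the arrays alike, replicate 1 highest and replicate 3 lowest, but the gaps differed in size. OVE replicate 3 lay below the mean of the other OVE arrays by 1.8 for H2-Ab1, 1.72 for Cd74 and 1.42 for H2-DMa. OVE replicates 1 and 2 were nearly equal for Cd74, 0.07 apart, and for H2-Ab1, 0.26 apart. For Ciita, by contrast, replicate 1 was 1.13 above replicate 2, and for H2-Eb1 it was 0.83 above. The order of replicates was not confined to OVE. The mean of Cd74, H2-Aa, H2-Ab1 and H2-Eb1 also fell from replicate 1 to 3 in D6, at 9.1, 8.88 and 8.32. In FVB this mean read 8.43, 8 and 7.94, while in OVE-D6 replicate 1 was lowest (8.21, 8.41 and 8.33). Single genes did not all keep the order, as H2-Aa in D6 (8.61, 8.74 and 8.2). Whether the class II genes follow the replicate number was not tested.

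The class II region of chromosome 17 was read gene by gene, from H2-Oa to Btnl2, in the order of the reference annotation. It holds 17 annotated genes, of which 14 were tested, 6 of them members. Among the 8 others, H2-Ea rose (0.92 ± 0.21 in OVE against FVB, limma adjusted p = 0.0231), where 4.90% of all genes were called higher. H2-Ea is the I-E alpha gene, annotated as a transcribed pseudogene in the reference strain. It read 7.58, 7.04 and 6.61 in OVE and 6.38, 5.98 and 6.10 in FVB, without overlap, though its probes may also read other, near-identical H2 genes, which was not tested. With OVE replicate 3 left out it rose by 1.16 ± 0.19 and fell by 1.04 ± 0.19 in OVE-D6 against OVE. In that fit its neighbours H2-Eb2 and Btnl2 also rose in OVE over FVB, where 7.57% of all genes were called higher. With all arrays neither neighbour passed (limma adjusted p = 0.188 and 0.23). All group means of H2-Eb2 (5.49 to 5.91) were under the olfactory receptor level of 5.93. Brd2, a chromatin reader with no part in presentation that lies between H2-Oa and H2-DMa, differed by 0.05 ± 0.08.

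The peptide transporter and immunoproteasome genes, which lie between H2-DMa and H2-Ob, serve class I presentation. They were singled out here after their values were seen. Psmb9 read 9.92 on OVE replicate 1 but 8.08 and 7.98 on replicates 2 and 3, against an FVB mean of 7.82. Tap1 read 9.69, 8.24 and 7.65 (FVB mean 7.48), and Btnl2, a T-cell inhibitory ligand at the end of the region, read 8.33, 6.67 and 6.17 (FVB mean 6.25). These genes set OVE replicate 1 apart from replicate 2, as Ciita and H2-Eb1 do, whereas H2-Ab1 and H2-Aa read 9.67 and 9.16 on replicate 2.

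**Figure D3:**
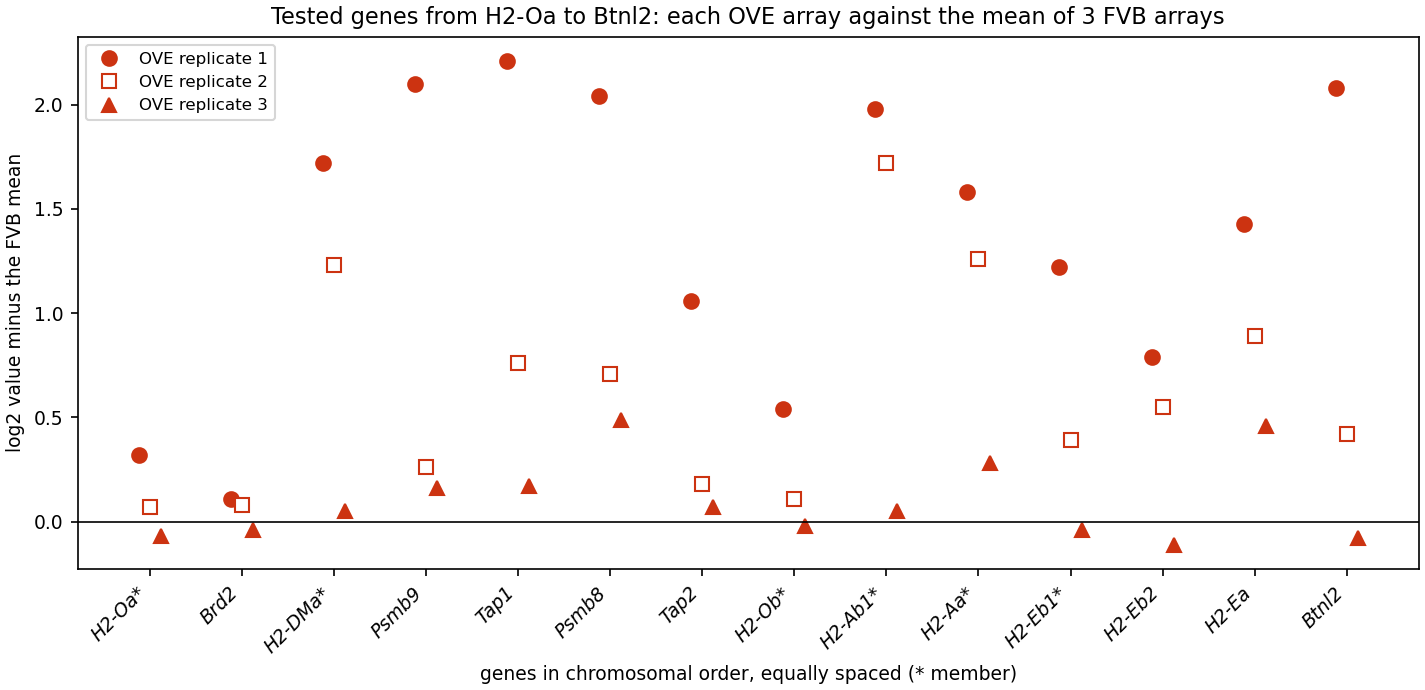
Log2 value of each OVE array minus the FVB mean for the 14 tested genes from H2-Oa to Btnl2, equally spaced in chromosomal order, with members starred. OVE replicate 1 is far above the FVB mean for Psmb9 (9.92 against 7.82) and Btnl2 (8.33 against 6.25), where replicate 2 is not, while both are high for H2-Ab1 (9.93 and 9.67 against 7.95).

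Of the factors that hold Ciita at the promoter, none passed in any comparison with all arrays. Without OVE replicate 3 none passed in OVE against FVB, OVE-D6 against OVE or the interaction, the only comparisons read for them in that fit. The 7 tested were the RFX subunits Rfx5, Rfxap and Rfxank, the Y-box factors Nfya, Nfyb and Nfyc, and Creb1. Their differences between OVE and FVB ran from -0.16 for Rfxap to 0.10 for Nfyb, with a median of -0.09. Rfx5 differed by 0.22 ± 0.09 between OVE-D6 and D6 (limma adjusted p = 0.464), the sole one of the 7 with an unadjusted p under 0.05 in any comparison.

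Interferon gamma is the main known inducer of Ciita. In OVE against FVB, 3 of 8 tested genes of its pathway were called higher, against 4.90% of all genes. These were both receptor chains, Ifngr2 (0.56 ± 0.12, limma adjusted p = 0.0155) and Ifngr1 (0.45 ± 0.11), and Irf8, a transcription factor of myeloid cells (0.51 ± 0.11). None of the 8 passed in the other comparisons. When OVE replicate 3 was left out, 4 rose (Irf1 too, by 1.49 ± 0.31), where 7.57% of all genes were called higher. In that fit Ifngr1 (-0.52 ± 0.09) and Ifngr2 (-0.43 ± 0.11) fell in OVE-D6 against OVE, as did 3.32% of all genes. Ifng itself stayed between 5.24 and 5.61 on all arrays, under the olfactory receptor level of 5.93, so its level could not be followed. Irf1, an interferon-induced factor singled out after its values were seen, read 9.45, 8.24 and 7.75 in OVE and 7.65, 7.27 and 7.16 in FVB (1.12 ± 0.34, adjusted p = 0.0645). As with Ciita, OVE replicate 1 was the highest array.

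Of 10 endosomal genes that prepare the peptides and cut the invariant chain, 3 rose in OVE over FVB, as did 4.90% of all genes. Ctss, the cathepsin that makes the last cut in the invariant chain, rose 2.71-fold (1.44 ± 0.30, limma adjusted p = 0.0171), Ctsd rose by 0.55 ± 0.10 and Ctsb by 0.33 ± 0.07. Ctss read 8.96, 8.78 and 7.50 in OVE, 7.09, 6.74 and 7.11 in FVB, 7.66, 7.77 and 7.10 in D6 and 7.04, 7.14 and 7.35 in OVE-D6. Its arrays thus ran much like Cd74, with OVE replicates 1 and 2 highest. It differed by -1.24 ± 0.30 between OVE-D6 and OVE without passing (adjusted p = 0.115), although the groups did not overlap. None of the 10 passed outside OVE against FVB. In the fit without OVE replicate 3, Ctss rose by 1.89 ± 0.18 and fell by 1.7 ± 0.18 in OVE-D6 against OVE. In that fit 4 of 10 rose in OVE over FVB, Cd83 the added one, where 7.57% of all genes were called higher.

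Of 5 tested co-stimulatory and co-inhibitory ligands, which give T cells their second signal, Icosl rose in OVE over FVB (0.38 ± 0.09, limma adjusted p = 0.0256) and none passed elsewhere. Cd86 also rose once OVE replicate 3 was left out, and it fell in OVE-D6 against OVE. Pdcd1lg2, the sixth of the list, was below the filter on low values. None of 9 tested class I presentation genes passed in any comparison. In OVE against FVB 7 had an unadjusted p under 0.05 as higher, as did 12.9% of all genes. The median of the 9 was 0.45 in OVE against FVB, -0.37 in OVE-D6 against OVE, 0.23 in D6 against FVB and -0.14 in OVE-D6 against D6. Each had the same sign as the class II median. With OVE replicate 3 left out, 6 of the 9 rose in OVE over FVB (B2m, Tap1, Tapbp, Psmb8, Psmb10 and Erap1), as did 7.57% of all genes. The median of the 9 was then 0.62, and Psmb10 fell in OVE-D6 against OVE, where 3.32% of all genes were called lower. H2-K1 and H2-D1, class I heavy chain genes, had no probe set of their own.

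Whole kidney holds many cell types, and in such samples fewer cells of a type and less RNA per cell cannot be told apart. Markers of the cells that make class II were therefore set beside the 8 genes. Of 11 macrophage and monocyte markers, 10 rose in OVE over FVB, where 4.90% of all genes were called higher. In OVE-D6 against OVE 3 fell (Lyz2, Cd14 and Mrc1), where 0.182% of all genes were called lower. None passed in the other comparisons. Leaving out OVE replicate 3, the same 10 rose in OVE over FVB, as did 7.57% of all genes. In that fit 10 of 11 markers fell in OVE-D6 against OVE, as did 3.32% of all genes. The mean level of the 11 markers was 9.14, 9.14 and 8.15 on the OVE arrays, 7.39 to 7.71 in FVB, 7.75 to 8.0 in D6 and 7.58 to 7.86 in OVE-D6. The same mean over the 8 class II genes was 8.80, 8.33 and 7.49 in OVE, 7.24 to 7.61 in FVB, 7.56 to 8.14 in D6 and 7.43 to 7.59 in OVE-D6. OVE replicate 3 thus kept a macrophage level above all FVB arrays while its class II level lay within the FVB range. The part of macrophage markers in the class II differences was not tested.

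Dendritic cell markers followed the class II genes in part. With all arrays none of 7 passed in any comparison. In OVE against FVB 2 had an unadjusted p under 0.05 as higher, as did 12.9% of all genes. Without OVE replicate 3, Flt3 and Clec9a fell in OVE-D6 against OVE, as did 3.32% of all genes. Xcr1 and Clec9a, markers of cross-presenting dendritic cells, had deviations from their group means that correlated at 0.88 and 0.87 with those of the classical class II mean. In OVE, Xcr1 read 6.22, 5.71 and 5.02 and Clec9a 6.43, 6.72 and 5.45, with replicate 3 lowest. All group means of Xcr1 (5.33 to 5.68), and that of Clec9a in OVE-D6 (5.74), were under the olfactory receptor level of 5.93. So were the means of Flt3 in FVB (5.82) and OVE-D6 (5.70), and those of Itgax outside OVE (5.88 to 5.92). Cd209a, by contrast, read 6.64, 8.54 and 7.35 and correlated at -0.09. The rest of the list correlated at 0.67 (Flt3), 0.43 (Itgax), -0.05 (Zbtb46) and -0.28 (Ccr7). The mean of the list was highest on OVE replicate 2, at 7.07, against 6.57 on replicate 1 and 6.32 on replicate 3, and was lower on every OVE-D6 array, at 6.14 to 6.26, than on the 9 others.

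Of 5 B-cell markers measured, Cd79b and Pax5 had all group means above the olfactory receptor level of 5.93, and Ms4a1, Cd79a and Cr2 had all of theirs below it. With all arrays none of the 3 tested passed. Cd79b, which encodes a subunit of the B-cell receptor, read 7.51, 7.25 and 6.77 in OVE, 6.88, 7.13 and 6.8 in FVB, 7.08, 6.88 and 6.65 in D6 and 6.64, 6.87 and 6.43 in OVE-D6. It differed by -0.53 ± 0.18 between OVE-D6 and OVE (limma adjusted p = 0.205), a fall that passed without OVE replicate 3, and its deviations correlated at 0.80 with those of the classical class II mean. Pax5 had group means of 5.99 to 6.31, and its deviations correlated at -0.48, against 0.44 for Cr2. Ms4a1, the CD20 gene, read between 4.59 and 5.14. Cd79a, the partner of Cd79b, reached 6.14 on OVE replicate 1 and 5.71 on replicate 2, and lay between 4.37 and 5.27 elsewhere.

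Of 4 tested T-cell markers, Cd3g rose in OVE over FVB (0.92 ± 0.21, limma adjusted p = 0.0225), where 4.90% of all genes were called higher. Its means outside OVE (5.32 to 5.70) were under the olfactory receptor level of 5.93. The T-cell list mean was 6.51, 6.67 and 6.06 in OVE and 5.96 to 6.16 on the other arrays. Cd3e, Cd3g and Cd4 rose in OVE over FVB in the fit without OVE replicate 3, as did 7.57% of all genes. In that fit Cd3g and Cd4 fell in OVE-D6 against OVE, as did 3.32% of all genes. The part of dendritic, B-cell and T-cell markers in the class II differences was not tested.

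**Figure D4:**
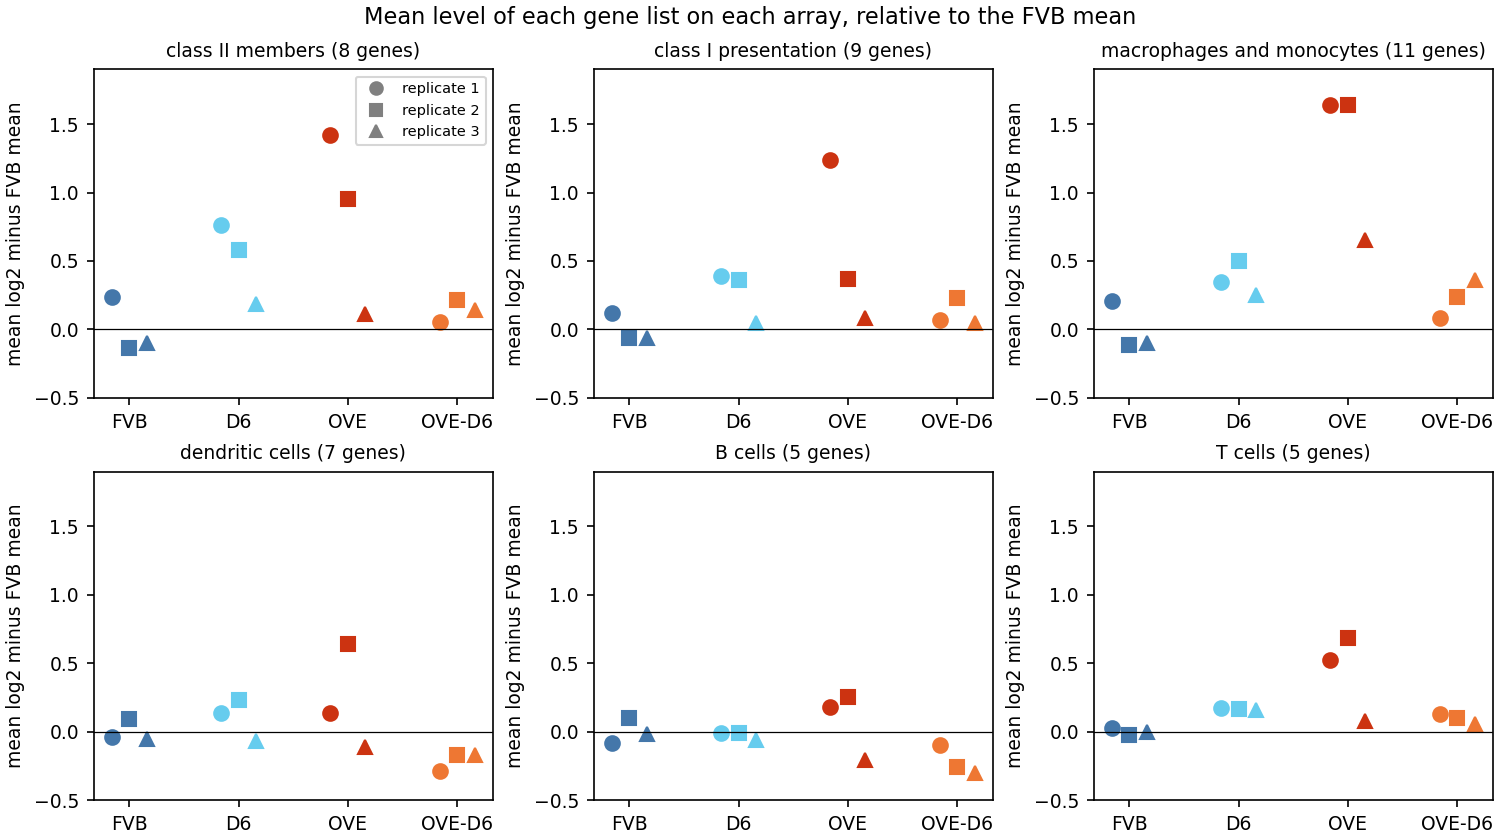
Mean log2 level of each gene list on each array minus its mean over 3 FVB arrays, by group, with symbols for replicates 1 to 3. OVE replicates 1 and 2 share the highest macrophage level (9.14 each before the FVB mean is taken away), OVE replicate 1 leads class I presentation (9.82 against 8.95 on replicate 2), and OVE replicate 2 leads the dendritic cell list (7.07).

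Other genes whose levels ran most like the classical class II genes were sought over the whole table, as a description with no test. The measure was the Pearson correlation over 12 arrays with the mean of Cd74, H2-Aa, H2-Ab1 and H2-Eb1. The 8 highest were Ly86 (0.976), Rbl1 (0.973), Clec7a (0.960), H2-M3 (0.959), Tapbp (0.955), Fgl2 (0.954), Cybb (0.953) and Pik3ap1 (0.953). Ly86 is a partner of a Toll-like receptor homologue on myeloid and B cells, Clec7a is the beta-glucan receptor of phagocytes, Cybb a subunit of their NADPH oxidase, and Tapbp loads class I molecules. OVE replicates 1 and 2 lie far from the rest and raise such values. Over the other 10 arrays the correlation was 0.966 for Rbl1 and 0.944 for Ly86, and 0.837 for Pik3ap1, the lowest of the 8.

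When each array was taken as its deviation from its group mean, the 8 genes most like the classical mean were B2m (0.978), Fcer1g (0.976), H2-M3 (0.966), C1qa (0.963), Camk1d (0.962), Ly86 (0.961), Clec4a3 (0.960) and Dennd1c (0.959). B2m is the light chain of class I molecules, and Fcer1g, C1qa and Clec4a3 are myeloid genes, and H2-M3 and Ly86 were found by both measures. Among the members, the correlation of these deviations with the mean of the other members was 0.94 for H2-Ab1, 0.93 for H2-Aa and H2-DMa, 0.91 for Cd74, 0.87 for Ciita, 0.83 for H2-Eb1, 0.82 for H2-Ob and 0.61 for H2-Oa. The OVE arrays, with the widest spread, set much of the range of these deviations.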

How the data were processed

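Total RNA of 12 whole kidneys was amplified and hybridised to Affymetrix mouse gene arrays, per the labels' protocols. The deposited table holds log2 probe-set values, 1 per array. How the authors summarised and normalised them is not given in the sources used here. No further scaling was applied. Symbols came from the platform annotation, updated through the RefSeq gene table of GRCm38.p6; of 35556 probe sets 21789 had 1 symbol, 1621 several and 12146 none here. Genes above the array's 25th percentile on at least 3 arrays were tested with limma 3.58.1 in R 4.3.3 (group means, contrasts, eBayes, Benjamini-Hochberg, 12 arrays). Scripts were tested on simulated data. Figures used Python 3.11.15 and matplotlib 3.10.9.

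The 10 members, the pathway and marker lists and the tests were chosen with earlier results of these data known. Named genes were the members, up to 4 called genes of each pathway list per comparison, the 7 promoter factors, the 8 genes most like the classical members by each measure, and Ackr2; others are said to be chosen after their values were seen. Marker genes are given as examples of their lists. Replicate numbers are shared between groups, and the main fit did not pair the mice by them. Over all tested genes, 2 of 18 same-numbered pairs had deviations that correlated above 0.1. Those correlations cannot show whether the class II genes follow the replicate number. With the number as a block, the SE of Cd74 in OVE against FVB was 0.30 in place of 0.42. The labels do not say that mice of a group were from different litters, and p-values measure the spread between these arrays. Alternatives changed the filter, normalisation, probe sets per gene, variance model, arrays fitted and replicate block, and left out each array; leaving OVE replicate 3 out of the list counts was added after seeing the data; their effect is given at the end. Cd74 was left out of the promoter search.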

Additional observations from a re-analysis of the deposited data

How the results depend on the processing

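The 3 arrays per group limit precision, and the class II counts moved most when OVE replicate 3 was left out. The class II genes called in OVE against FVB were 2, 0 with trend and robust variance, 0 with only the 2 groups compared, 4 with array weights and 0 to 6 with an array left out. The median class II difference there was 0.94 (0.53 to 1.33 with an array left out). In OVE-D6 against OVE the count was 0 (0 to 5 with an array left out), and above 0 only without OVE replicate 3. The median was -0.77 (-1.16 to -0.36). In D6 against FVB and OVE-D6 against D6 no class II gene was called under any alternative, with medians of 0.35 to 0.60 and -0.45 to -0.24 with an array left out. For the interaction the count was 0 (0 to 4 with an array left out), again above 0 only without OVE replicate 3. The median was -1.24 (-1.61 to -0.86). H2-Oa in OVE-D6 against OVE turned from -0.08 to 0.03 without OVE replicate 1 (-0.17 to 0.03 with an array left out), the sole reversal among member differences. The cause of these moves was not tested.

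Over all genes, OVE against FVB called 1200, 440 with only the 2 groups compared and 359 to 1901 with an array left out. OVE-D6 against OVE called 38, 22 with 75th percentile scaling, 91 with array weights, 0 with only the 2 groups compared and 1 to 668 with an array left out. D6 against FVB called 2, 4 with array weights, 1 with only the 2 groups compared and 2 to 3 with an array left out. OVE-D6 against D6 called 47, 76 with trend and robust variance, 87 with array weights and 17 to 74 with an array left out. The interaction called 0, and 0 to 377 with an array left out. With the replicate number as a block, OVE-D6 against OVE called 7 genes and OVE-D6 against D6 29, and the block changed no class II call. Quantile normalisation, 75th percentile scaling, the mean of all probe sets per gene, no filter and a filter at the 50th percentile gave the same class II counts; the last left H2-Oa and H2-Ob untested.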
